A study of Mus musculus with 12 samples.

Results

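The 10 genes described here are 4 myogenic regulatory factors (Myf5, Myod1, Myog and Myf6) and 6 genes tied to satellite cells or to myoblast fusion (Pax7, Calcr, Megf10, Sox8, Vcam1 and Mymk), chosen by name from the 18820 genes measured. They were chosen with earlier results of these data known. Each had 1 probe set that carries its symbol alone, so all 10 were measured. Expression was compared between Tk2-/- and Tk2+/+ C57BL/6 mice, 11 days-old, in hind limb skeletal muscle and in heart, with 3 arrays for each of the 4 groups. Tk2 encodes thymidine kinase 2, the mitochondrial enzyme that phosphorylates thymidine and deoxycytidine for mtDNA synthesis, and Tk2-/- mice are homozygous knockouts bred from heterozygous parents. The question was how the transcripts of muscle progenitors and of the myogenic programme differ when the enzyme is missing. The 3 mice of a genotype were different animals. Their sex, and whether equal replicate numbers in the 2 tissues mark 1 mouse, are not stated in the sources used.

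Satellite cells are the stem cells of skeletal muscle and lie between the fibre and its basal lamina. They are known by the paired-box factor Pax7. During growth they divide as myoblasts that carry Myf5 and MyoD, then leave the cell cycle, switch on myogenin and fuse into fibres with the help of the membrane protein myomaker. Myf6 (MRF4) is the myogenic factor known for its high level in formed fibres. Heart muscle has no satellite cells and does not use the 4 myogenic regulatory factors.

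Values are linear array intensities as deposited, called signal here, and the background level is the 95th percentile of the signal of 1192 olfactory, vomeronasal and taste receptor genes on the same array. It lay between 29.3 and 31.99 on skeletal muscle arrays and between 18.3 and 25.2 on heart arrays. A log2 fold change is the mean log2(signal + 16) of Tk2-/- minus that of Tk2+/+ arrays, given ± SE, with an adjusted p from limma (Benjamini-Hochberg over all 18820 genes, threshold 0.05). The offset of 16 understates the change of dim genes. The mean signal of all genes was 227.4 to 249.01 in Tk2-/- and 204.4 to 253.3 in Tk2+/+ skeletal muscle, and 144.2 to 169.2 in Tk2-/- and 231.97 to 249.005 in Tk2+/+ heart. Over all genes the log2 fold change had a median of -0.02 in skeletal muscle and -0.28 in heart. Tk2 itself had a signal of 64.67, 44.06 and 48.69 in Tk2-/- and 62.92, 68.49 and 63.10 in Tk2+/+ skeletal muscle (adjusted p = 0.208). In heart it was lower in all Tk2-/- arrays (30.07, 46.25 and 31.67) than in Tk2+/+ arrays (70.18, 73.56 and 81.80, adjusted p = 7.62e-05). The sources do not place its probes against the part that was disrupted, and the signal is therefore no check on genotype labels. The tissue labels fitted their markers in both genotypes: on every array the 14 genes of mature skeletal muscle fibres summed to at least 60717 in skeletal muscle and at most 3951 in heart, and the 14 cardiomyocyte genes to at least 35677 in heart and at most 7619 in skeletal muscle.

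In Tk2-/- skeletal muscle, 8 of the 10 genes fell and none rose, and so it was for the same 8 after quantile normalization within each tissue (14.5% of all genes lower and 14.5% higher). With the deposited values, 10.9% of all genes passed the threshold as lower and 11.6% as higher. Mymk, Myog, Sox8, Megf10 and Myod1 fell most, Vcam1, Pax7 and Calcr fell by less, and Myf5 and Myf6 did not pass the test. For the 8 genes that fell, all 3 Tk2-/- arrays were below all 3 Tk2+/+ arrays, which 18.8% of all genes also showed (16.9% lay wholly above). The median log2 fold change of the 10 genes was -0.92. In whole tissue, fewer cells of a type and less RNA per cell cannot be told apart.

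**Figure D1:**
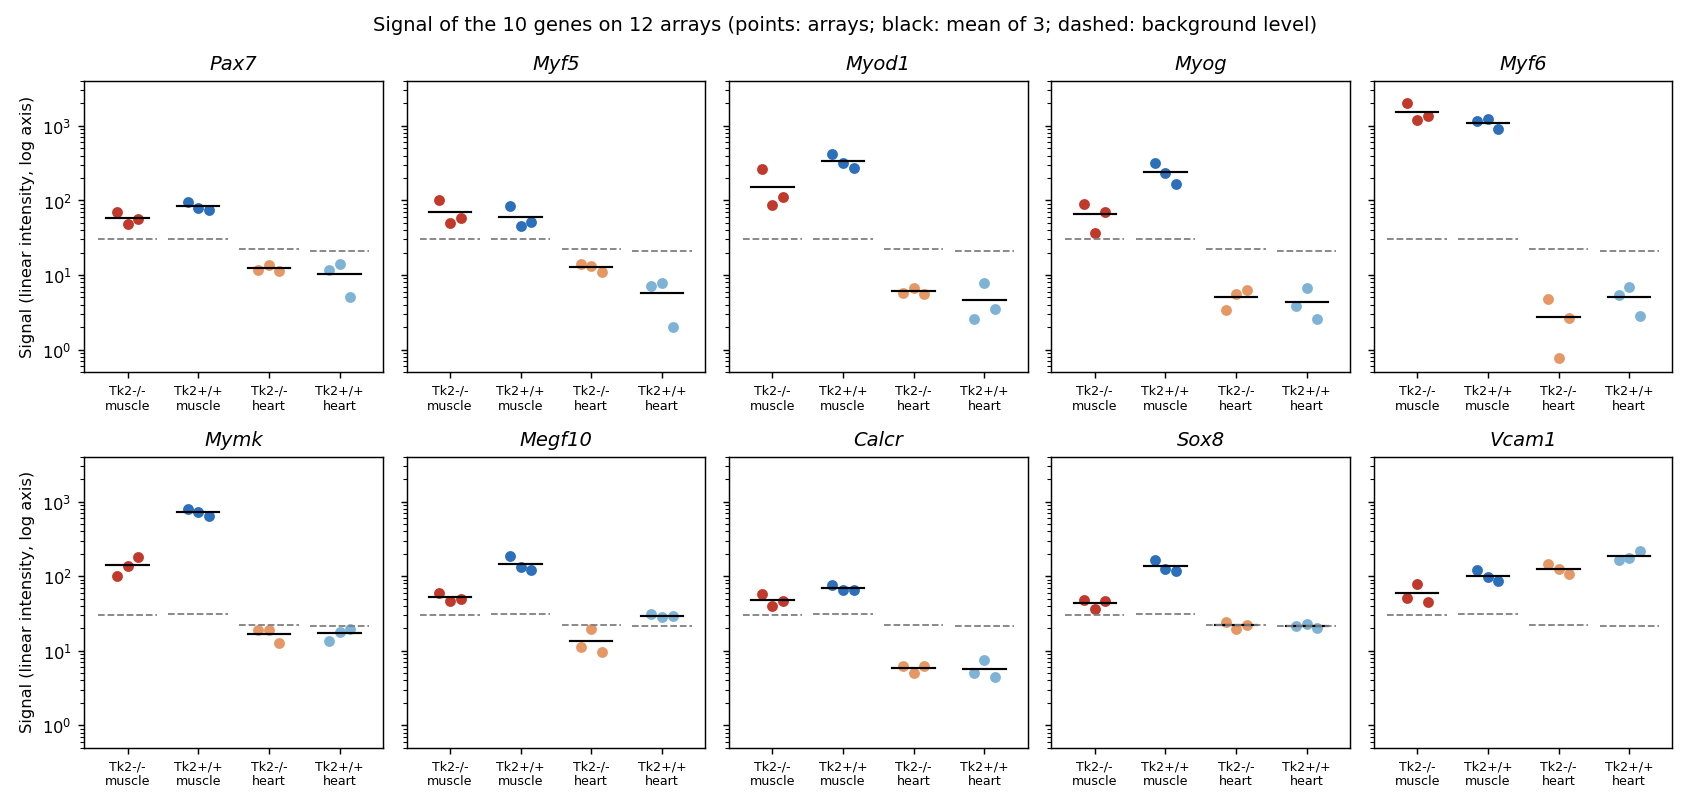
Signal of each gene on each array (log axis, linear intensity) by tissue and genotype. Points are arrays, black lines are means of 3 arrays and dashed lines are the mean background level of the group. All 10 genes lay above background on every skeletal muscle array, and only Vcam1 did so on every heart array of both genotypes.

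Promoter sequences are shown for 4 genes that cover the range of responses: Myog and Sox8, which fell strongly, Pax7, which fell by less, and Myf5, which did not pass the test. The sequences are the 250 bases before the start of each gene in RefSeq (build GRCm38.p6, 5′ to 3′ on the gene's strand), and 5 of the 10 genes were matched in that table. Capitals mark each match on either strand to the E-box CANNTG, the kind of site that MyoD-family factors bind, and to CTANNNNTA, a loose form of the site that MEF2 factors bind. No E-box overlapped a CTANNNNTA match in the 4 windows.
Myog, chr1:134289754-134290003, plus strand: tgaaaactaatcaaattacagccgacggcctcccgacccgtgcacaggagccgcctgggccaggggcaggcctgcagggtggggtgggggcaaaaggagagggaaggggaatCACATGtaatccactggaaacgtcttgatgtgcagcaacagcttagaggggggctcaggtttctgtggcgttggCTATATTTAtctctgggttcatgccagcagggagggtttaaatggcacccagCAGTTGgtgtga
Sox8, chr17:25570687-25570936, minus strand: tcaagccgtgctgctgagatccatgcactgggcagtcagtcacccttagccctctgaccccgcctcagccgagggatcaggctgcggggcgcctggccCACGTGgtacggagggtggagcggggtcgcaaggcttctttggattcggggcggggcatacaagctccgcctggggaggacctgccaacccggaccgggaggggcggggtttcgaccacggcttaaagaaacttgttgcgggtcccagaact
Pax7, chr4:139832969-139833218, minus strand: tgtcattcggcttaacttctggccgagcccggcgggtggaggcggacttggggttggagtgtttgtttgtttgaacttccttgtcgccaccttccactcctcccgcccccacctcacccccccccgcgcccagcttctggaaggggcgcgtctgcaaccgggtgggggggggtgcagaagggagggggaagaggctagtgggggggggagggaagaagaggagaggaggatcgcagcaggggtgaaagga
Myf5, chr10:107486135-107486384, minus strand: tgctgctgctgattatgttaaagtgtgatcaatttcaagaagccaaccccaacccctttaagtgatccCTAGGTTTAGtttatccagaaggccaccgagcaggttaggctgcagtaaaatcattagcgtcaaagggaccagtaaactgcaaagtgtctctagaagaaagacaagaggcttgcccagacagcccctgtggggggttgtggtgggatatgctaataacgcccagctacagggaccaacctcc

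The Myog window held E-boxes CACATG and CAGTTG, whose first bases lie at -138 and -12 from the start, and CTATATTTA at -64. In mice, the E-box next to the start and the MEF2 site of the Myog promoter are known to drive the gene in forming muscle. The Sox8 window held 1 E-box, CACGTG at -152, and no CTANNNNTA. The Pax7 window held neither. The Myf5 window held no E-box and a pair of overlapping CTANNNNTA matches, on opposite strands, that start at -182 and -181. Of 32851 promoter windows of this length, 66.2% held an E-box, 19% held CTANNNNTA and 13% held CAGCTG, the E-box form preferred by MyoD, which none of the 4 windows held. These matches are descriptions of the sequence and were not tested for binding.

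Pax7, the transcription factor that marks satellite cells and keeps them as stem cells, had a signal of 69.63, 48.03 and 57.27 in Tk2-/- and of 96.72, 79.20 and 74.93 in Tk2+/+ skeletal muscle. The highest Tk2-/- array was thus not far below the lowest Tk2+/+ array. The log2 fold change was -0.43 ± 0.14 (adjusted p = 0.0400). Calcr, the calcitonin receptor, which helps to hold satellite cells in quiescence, was at 57.06, 40.14 and 46.98 in Tk2-/- and at 75.23, 65.62 and 65.29 in Tk2+/+ skeletal muscle, again with no overlap. Its log2 fold change was -0.41 ± 0.11 (adjusted p = 0.0121). The call of Pax7 was lost (adjusted p = 0.0556 to 0.191) without Tk2+/+ skeletal muscle replicate 1 or 2, Tk2-/- skeletal muscle replicate 2 or 3, or Tk2-/- heart replicate 1, and that of Calcr without Tk2+/+ skeletal muscle replicate 1 (adjusted p = 0.0625) or Tk2-/- skeletal muscle replicate 2 (adjusted p = 0.0805).

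Of the other genes tied to satellite cells, Megf10 and Sox8 fell by more than Pax7 and Calcr. Megf10, a receptor of the engulfment family that keeps satellite cells proliferating and whose loss in humans causes a myopathy, was at 60.10, 46.94 and 49.68 in Tk2-/- and at 186.02, 132.27 and 121.50 in Tk2+/+ skeletal muscle. Every Tk2-/- array lay far below the lowest Tk2+/+ array, and the log2 fold change was -1.24 ± 0.15 (adjusted p = 2.95e-05). Sox8, an SRY-related factor found in satellite cells, was at 48.50, 35.97 and 46.39 in Tk2-/- and at 162.87, 125.65 and 117.79 in Tk2+/+ skeletal muscle, a log2 fold change of -1.34 ± 0.12 (adjusted p = 2.24e-06). Vcam1, an adhesion molecule of satellite cells that endothelium and other cells also carry, was at 50.79, 79.39 and 45.69 in Tk2-/- and at 120.43, 98.28 and 86.55 in Tk2+/+ skeletal muscle. Its Tk2-/- replicate 2 came close to the Tk2+/+ arrays, and the log2 fold change was -0.67 ± 0.17 (adjusted p = 0.00857).

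Of the myogenic regulatory factors, 2 fell and 2 did not pass the test. Myod1, which encodes the MyoD factor that commits cells to muscle, was at 261.50, 86.68 and 112.38 in Tk2-/- and at 416.42, 316.85 and 271.06 in Tk2+/+ skeletal muscle. Tk2-/- replicate 1 was just below the lowest Tk2+/+ array and the other two were far below it. The log2 fold change was -1.17 ± 0.26 (adjusted p = 0.00437), with values of -1.59 without that replicate and -0.87 without replicate 2, both past the threshold. Myog, which encodes myogenin, the factor that drives terminal differentiation of myoblasts, was at 89.92, 36.33 and 70.93 in Tk2-/- and at 322.42, 233.62 and 165.55 in Tk2+/+ skeletal muscle. It fell by 1.66 ± 0.23 on the log2 scale (adjusted p = 9.00e-05), and Tk2-/- replicate 2 was near the background level of 30.1 on its array.

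Myf5, the factor that acts earliest in the embryo and marks committed satellite cells and myoblasts, was at 102.76, 50.59 and 57.79 in Tk2-/- and at 83.60, 45.40 and 51.69 in Tk2+/+ skeletal muscle. Each genotype had 1 high array and 2 low ones, so the groups overlapped throughout. The log2 fold change was 0.17 ± 0.20, with a 95% interval of -0.27 to 0.60 (adjusted p = 0.669). Myf6 was at 2022.93, 1205.50 and 1338.36 in Tk2-/- and 1149.95, 1251.78 and 901.16 in Tk2+/+ arrays. Only Tk2-/- replicates 1 and 3 exceeded every Tk2+/+ array. The log2 fold change of 0.44 ± 0.17 did not pass the threshold (adjusted p = 0.0855, 95% interval 0.07 to 0.80) and passed it without Tk2-/- skeletal muscle replicate 2 (adjusted p = 0.0378) and with each array centred on its median (0.52, adjusted p = 0.0167). With quantile normalization by tissue the Myf6 value was 0.28 (adjusted p = 0.233). It went down to 0.22 when 1 array was left out, with adjusted p up to 0.380. Myf5 and Myf6 are next to each other on chromosome 10 (GRCm38.p6), and these neighbours were the 2 genes of the 10 that did not pass the test.

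Mymk, which encodes myomaker, the membrane protein that myoblasts need to fuse, fell most. Its signal was 101.29, 134.92 and 183.46 in Tk2-/- and 806.24, 721.68 and 646.01 in Tk2+/+ skeletal muscle, with a wide gap between the groups. The log2 fold change was -2.28 ± 0.16 (adjusted p = 2.02e-07, 95% interval -2.62 to -1.93), and it stayed between -2.47 and -2.09 when any 1 of the 12 arrays was left out.

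**Figure D2:**
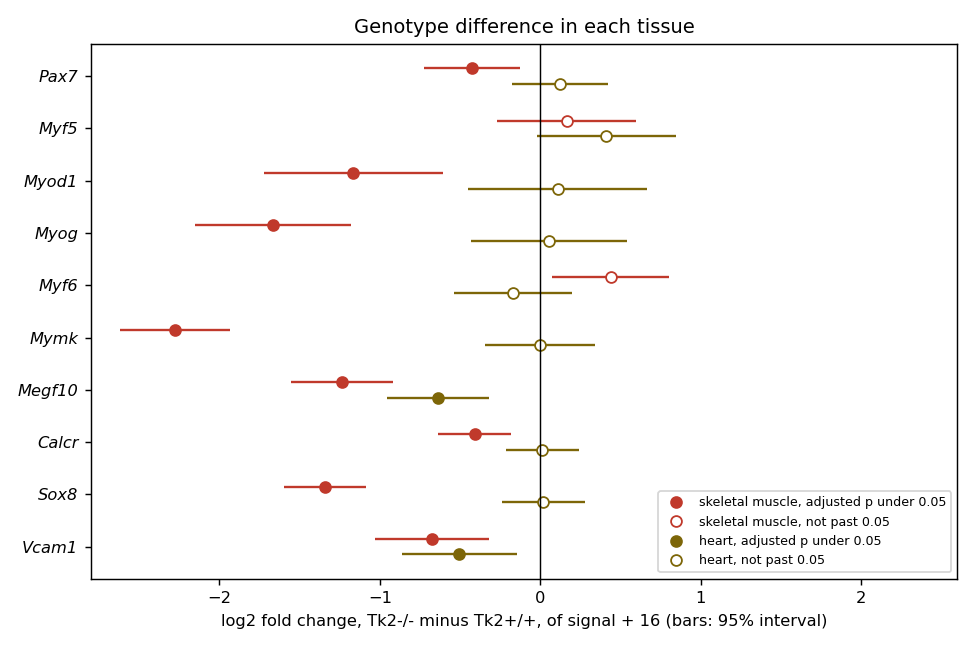
Log2 fold change of signal + 16, Tk2-/- minus Tk2+/+, for each gene in skeletal muscle and in heart. Points are estimates, bars are 95% intervals and filled points passed an adjusted p of 0.05. Skeletal muscle values ran from -2.28 for Mymk to 0.44 for Myf6, and heart values from -0.64 for Megf10 to 0.41 for Myf5.

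Each gene was also set against Pax7 on the same array. Measured so, the log2 difference between genotypes was -1.85 ± 0.30 for Mymk, -1.24 ± 0.26 for Myog, -0.91 ± 0.06 for Sox8 and -0.81 ± 0.09 for Megf10, and in all 4 cases the 3 Tk2-/- arrays lay below the 3 Tk2+/+ arrays. For Calcr it was 0.02 ± 0.04 and the arrays overlapped. Relative to Pax7, Myf6 (0.87 ± 0.17) and Myf5 (0.59 ± 0.20) were higher on all Tk2-/- arrays. Myod1 (-0.74 ± 0.33) and Vcam1 (-0.25 ± 0.30) overlapped. With 3 arrays against 3, the 2-sided exact permutation test cannot go below p = 0.1, which those 6 genes reached (adjusted p = 0.15 over the 9 comparisons), so none of these differences could pass 0.05. They were computed after the values had been seen.

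Most of the 10 genes shared an order among the arrays of 1 genotype. Tk2-/- skeletal muscle replicate 1 was the highest of its group for 8 of the 10 genes and replicate 2 the lowest for the same 8, with Mymk and Vcam1 as the exceptions. Among Tk2+/+ skeletal muscle arrays, replicate 1 was the highest for 9 genes (all but Myf6) and replicate 3 the lowest for 9 (all but Myf5). Relative to the Tk2+/+ mean, Myod1 was at -0.32 on Tk2-/- replicate 1 and at -1.75 and -1.43 on replicates 2 and 3 on the log2 scale, and Myf5 at 0.67, -0.16 and -0.01. Mymk ran the other way, at -2.65, -2.29 and -1.89. Median signals over all genes were 65.4, 60.4 and 57.5 on Tk2-/- and 69.2, 67.2 and 61.1 on Tk2+/+ skeletal muscle replicates 1 to 3, so replicate 1 was also the brightest array of each group by its median, though not by its mean. The part of overall brightness in the shared order was not tested.

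**Figure D3:**
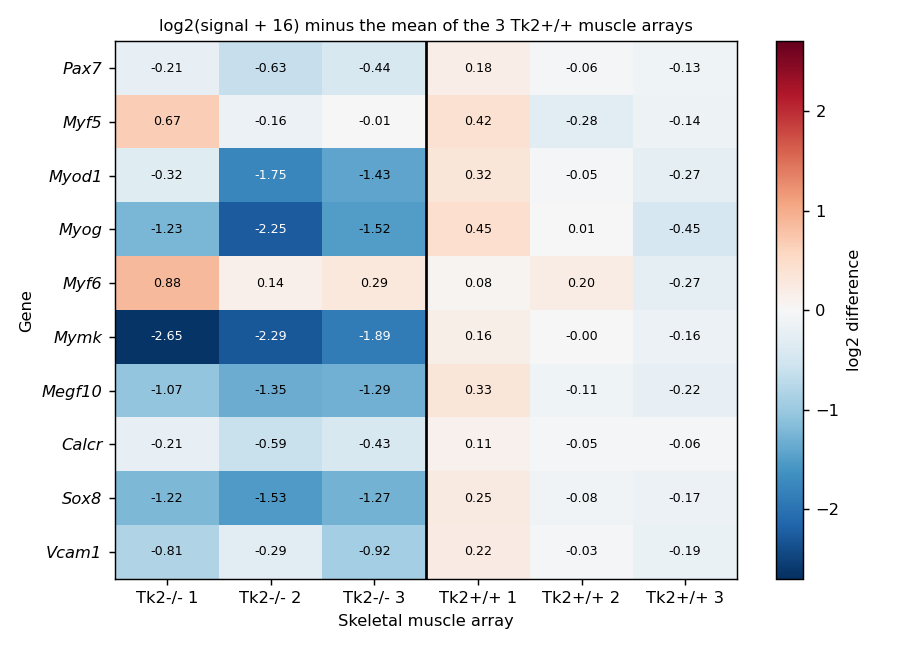
Log2(signal + 16) of each gene on each of the 6 skeletal muscle arrays, minus the mean of the 3 Tk2+/+ arrays (colour and printed value, log2 units). Mymk was at -2.65, -2.29 and -1.89 on the Tk2-/- arrays, whereas Myf6 was above 0 on all 3 of them.

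In heart, 8 of the 10 genes lay below or around the background level in both genotypes. On no Tk2-/- or Tk2+/+ heart array did Pax7, Myf5, Myod1, Myog, Myf6 or Calcr exceed the background level, with signals of at most 14.2 for any of them. Mymk exceeded it on 1 Tk2+/+ array alone (19.48 against 18.3) and on 0 of 3 Tk2-/- arrays. Sox8, at 24.57, 19.40 and 22.08 in Tk2-/- and 21.44, 22.65 and 20.25 in Tk2+/+ heart, lay around the background level in both genotypes. A genotype difference of these 8 genes was not detectable in heart at such signals. All their adjusted p were above 0.05, including that of Myf5 (0.109), whose 3 Tk2-/- arrays (14.02, 13.02 and 10.94) were above the 3 Tk2+/+ arrays (7.05, 7.94 and 2.04) with both groups below background.

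Megf10 and Vcam1 were the 2 genes lower in Tk2-/- heart, where 49.0% of all genes passed the threshold as lower and 1.99% as higher. They were also the 2 genes above background on all Tk2+/+ heart arrays, so the count of the other 8 cannot be read against those shares. Megf10 was at 11.19, 19.69 and 9.56 in Tk2-/- and at 30.93, 28.19 and 29.05 in Tk2+/+ heart. The Tk2-/- arrays were all below background, so by the deposited signals the gene was at least 1.33-fold lower. This bound is the geometric mean of the Tk2+/+ signals over that of the background levels of the Tk2-/- arrays. The fitted log2 fold change was -0.64 ± 0.15 (adjusted p = 0.00178), -0.52 (adjusted p = 0.0151) with quantile normalization by tissue and -0.19 (adjusted p = 0.185) with each array centred on its median, where the call was lost. Vcam1 was at 147.84, 123.22 and 105.68 in Tk2-/- and at 163.08, 173.34 and 217.97 in Tk2+/+ heart, with no overlap, as for 53.3% of all genes (3.16% lay wholly above). Its log2 fold change was -0.51 ± 0.17 with the deposited values (adjusted p = 0.0189) and 0.17 (adjusted p = 0.472) with quantile normalization by tissue, under which 16% of all genes were lower and 16.1% higher in Tk2-/- heart. Its direction in heart thus turned with the scaling of the arrays. The call was also lost without Tk2+/+ heart replicate 3 (adjusted p = 0.0942) or Tk2-/- heart replicate 3 (adjusted p = 0.094).

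Between tissues, 9 of the 10 genes were higher in skeletal muscle than in heart in Tk2-/- mice, where 59.5% of all genes were higher in skeletal muscle, and the same 9 in Tk2+/+ mice, where 30.6% were. With quantile normalization by tissue these shares were 48.8% in Tk2-/- and 49.5% in Tk2+/+ mice, and the members' counts stayed at 9. Myf6 was at least 67.3-fold above the heart background level in Tk2-/- and at least 51.7-fold in Tk2+/+ skeletal muscle. For Myod1 these bounds were 6.2-fold in Tk2-/- and 15.6-fold in Tk2+/+ mice, and for Myog 2.79-fold in Tk2-/- and 11.0-fold in Tk2+/+ mice. The bounds set the mean log2 signal in skeletal muscle against the higher of the background level and the signal on each heart array. Vcam1 alone ran the other way and was lower in skeletal muscle than in heart, with a log2 difference of -0.94 ± 0.17 in Tk2-/- mice (adjusted p = 0.000194, with 4.55% of all genes lower) and -0.77 ± 0.17 in Tk2+/+ mice (adjusted p = 0.0018, with 18.4% lower). With quantile normalization by tissue the shares of all genes lower were 10.2% in Tk2-/- and 10.5% in Tk2+/+ mice. By its deposited signal, Vcam1 was lowest in Tk2-/- skeletal muscle (58.6 ± 18.2, SD, n = 3), then Tk2+/+ skeletal muscle (102 ± 17.2) and Tk2-/- heart (126 ± 21.2), whose arrays overlapped, and highest in Tk2+/+ heart (185 ± 29.2). The order of the last 2 turned with quantile normalization by tissue, as given above (0.17). For the other 9 genes the level in each skeletal muscle group exceeded that in both heart groups on every array.

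The test of the difference between the tissues' genotype effects passed for 7 genes, Mymk (-2.27 ± 0.23), Myog (-1.72 ± 0.32), Sox8 (-1.36 ± 0.17), Myod1 (-1.27 ± 0.37), Megf10 (-0.60 ± 0.21), Pax7 (-0.55 ± 0.20) and Calcr (-0.42 ± 0.15). Each was lower in skeletal muscle relative to heart, as 1.39% of all genes were, while 41.3% were higher. All of them but Megf10 were at or around background in both heart groups, where a genotype effect was not detectable. Megf10 was below background on every Tk2-/- heart array, so the size of its difference between tissues was not settled. The count of these 7 genes therefore cannot be read against those shares. With quantile normalization by tissue the test passed for Mymk, Myog, Sox8 and Myod1, and also for Vcam1 (-0.78, adjusted p = 0.0459), beside 5.03% of all genes as lower and 5.13% as higher. The calls of Pax7, Megf10 and Calcr were also lost when single arrays were left out, and without Tk2+/+ skeletal muscle replicate 1 the test passed for 4 genes. Myf6, with a difference of 0.61 ± 0.24, did not pass (adjusted p = 0.0560). It passed with dim genes left out (adjusted p = 0.0379), with the trended robust prior (adjusted p = 0.0442) and without Tk2-/- skeletal muscle replicate 2 or 3, Tk2+/+ skeletal muscle replicate 2 or Tk2+/+ heart replicate 3 (adjusted p = 0.0203 to 0.0496). With quantile normalization by tissue the Myf6 difference was 0.45 and did not pass (adjusted p = 0.246). It went down to 0.39 when 1 array was left out, with adjusted p up to 0.156.

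The genes that work with the 10 did not move as 1 group in Tk2-/- skeletal muscle. The lists below were chosen by known role, with earlier results of these data known, and are given as counts. They stand beside 11.6% of all genes higher and 10.9% lower with the deposited values. With quantile normalization by tissue, 14.5% of all genes were higher and 14.5% lower. Of 20 further genes of the satellite cell surface and niche, 4 fell and 2 rose (median log2 fold change -0.09). With quantile normalization by tissue, 7 fell, with Cav1, Notch3 and Cd82 in addition, and 2 rose. Cd34, a sialomucin of satellite cells that vessels and fibroblasts also carry, was at 811.25, 685.81 and 731.06 in Tk2-/- and at 1550.36, 1907.85 and 1536.67 in Tk2+/+ skeletal muscle (log2 fold change -1.14 ± 0.16, adjusted p = 9.41e-05). Fgfr4, the FGF receptor of myoblasts, was at 66.57, 53.18 and 58.42 in Tk2-/- and 169.19, 116.09 and 112.67 in Tk2+/+ arrays (-0.96 ± 0.15, adjusted p = 0.000259). Heyl, a target of Notch, the pathway that keeps satellite cells undifferentiated, also fell (-0.89 ± 0.18, adjusted p = 0.00244), whereas Fgfr1, another FGF receptor, rose (0.70 ± 0.11, adjusted p = 0.000218).

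Of 19 partners and regulators of the myogenic factors, 5 rose and 2 fell (median 0.14) with the deposited values, and 6 rose and 6 fell (median 0.03) with quantile normalization by tissue. Smarcd3, the chromatin remodelling subunit that MyoD recruits, averaged 242 ± 41.4 in Tk2-/- and 427 ± 82.0 in Tk2+/+ skeletal muscle (log2 fold change -0.78 ± 0.15, adjusted p = 0.00153). Id1, an inhibitor that ties up the E-protein partners of MyoD, averaged 299.9 ± 46.1 in Tk2-/- and 203 ± 9.16 in Tk2+/+ arrays (0.52 ± 0.16, adjusted p = 0.0287). Six4, a homeobox activator of Myog, rose by 0.57 ± 0.13 (adjusted p = 0.00561) and Pitx3, a homeobox factor of differentiating myoblasts, by 0.41 ± 0.10 (adjusted p = 0.00597).

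Of 18 genes of myoblast fusion other than Mymk, 4 fell and 1 rose (median -0.10). Those that fell were Dysf, a membrane repair protein (-0.76 ± 0.17, adjusted p = 0.00422), Elmo1, which activates Rac with Dock1 (-0.61 ± 0.12, adjusted p = 0.00131), the cadherin Cdh2 (-0.40 ± 0.11, adjusted p = 0.0132) and the tetraspanin Cd81 (-0.39 ± 0.13, adjusted p = 0.0356). None of them fell by as much as Mymk.

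Of 24 differentiation targets of the myogenic factors, 6 rose and 6 fell (median 0.11), and with quantile normalization by tissue 4 rose and 7 fell (median -0.02). Cdkn1a, the cell cycle inhibitor p21 that MyoD induces in differentiating myoblasts and p53 in stressed cells, was at 2614.52, 2724.01 and 2436.15 in Tk2-/- and at 549.56, 593.72 and 545.36 in Tk2+/+ skeletal muscle (log2 fold change 2.17 ± 0.15, adjusted p = 2.02e-07). Musk, the receptor kinase of the neuromuscular junction, averaged 463 ± 101 in Tk2-/- and 203 ± 32.5 in Tk2+/+ arrays (1.12 ± 0.14, adjusted p = 4.44e-05), and Runx1, a factor known to rise in denervated muscle, averaged 220.2 ± 88.4 in Tk2-/- and 85.9 ± 13.7 in Tk2+/+ arrays (1.16 ± 0.19, adjusted p = 0.000445). Actc1, the cardiac actin that young skeletal muscle also makes, fell to 2446 ± 52.7 in Tk2-/- skeletal muscle, against 7328 ± 1245 in Tk2+/+ skeletal muscle (-1.56 ± 0.13, adjusted p = 8.82e-07). The other genes of this list that fell were the acetylcholine receptor subunits Chrna1, Chrnb1 and Chrng, with Tnnt2 and Casq2. Chrne fell too with quantile normalization by tissue. The others that rose with the deposited values were Des, Tnnt1 and Tnnc1. None of the 14 genes of mature fibres passed limma's test (median 0.11, and -0.04 with quantile normalization by tissue).

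**Figure D4:**
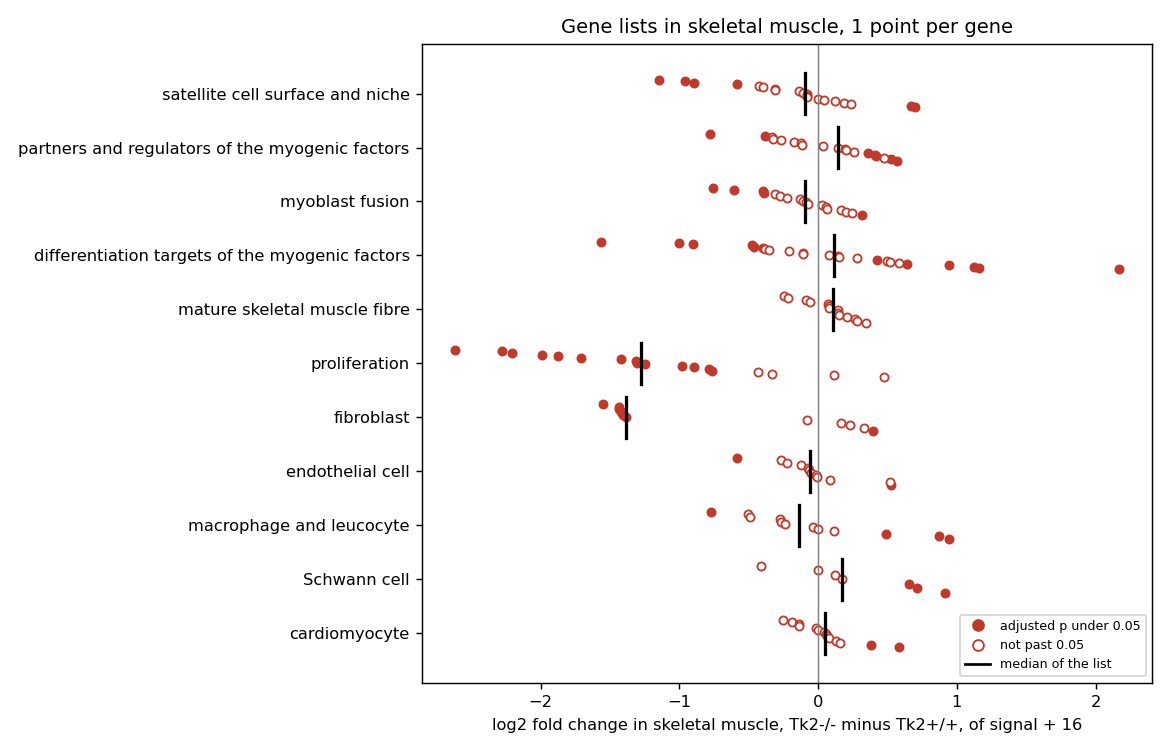
Log2 fold change of signal + 16 in skeletal muscle, Tk2-/- minus Tk2+/+, with 1 point per gene for each list. Filled points passed an adjusted p of 0.05 and black bars are list medians. Proliferation (median -1.28) and fibroblast genes (median -1.38) lay lowest, and mature fibre genes near 0 (median 0.11, and -0.04 with quantile normalization by tissue).

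Genes of proliferation and of other cell types moved beside the 10 genes, and their part in the falls was not tested. Of 18 proliferation genes, 14 fell in Tk2-/- skeletal muscle and none rose (median -1.28). Their summed signal was 1129 to 1678 in Tk2-/- and 2018 to 3374 in Tk2+/+ arrays. Ccna2, cyclin A, was at 10.58, 49.11 and 18.69 in Tk2-/- and at 312.24, 223.50 and 159.04 in Tk2+/+ skeletal muscle (-2.61 ± 0.32, adjusted p = 3.41e-05), and 1 of the 3 Tk2-/- arrays was above background. Tk2-/- replicate 2, the array with the lowest signal for 8 of the 10 genes, was the highest of its group for Ccna2, and likewise for Mki67 (96.39, with 15.13 and 29.11 on the other two), a protein of dividing cells.

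Of 11 fibroblast genes, 6 fell and 1 rose (median -1.38), and their summed signal was 8770 to 10799 in Tk2-/- and 15130 to 17263 in Tk2+/+ skeletal muscle, with 10 of 11 above background on every array of both groups. The 6 that fell were Lum, Col1a1, Col1a2, Col3a1, Dpt and Postn, and the 1 that rose was Pdgfra. Dcn, Fbln1, Pdgfrb and Tcf21 did not pass the test, so the list did not move as 1 group. Col1a2, a chain of type I collagen, averaged 1175 ± 167 in Tk2-/- and 3181 ± 178 in Tk2+/+ arrays (-1.43 ± 0.12, adjusted p = 1.63e-06). Of 12 macrophage and leucocyte genes, 3 rose and 1 fell, with sums of 1830 to 2171 in Tk2-/- and 1595 to 2426 in Tk2+/+ arrays. Of 7 Schwann cell genes, 3 rose and none fell, with sums of 617 to 662 in Tk2-/- and 438 to 548 in Tk2+/+ arrays. Of 12 endothelial genes, 1 rose and 1 fell (2 rose and 3 fell with quantile normalization by tissue), and the sums of 6262 to 6994 in Tk2-/- and 6607.75 to 8125 in Tk2+/+ arrays overlapped. Of 14 cardiomyocyte genes, 2 rose (Actn2 and Myl3, and Actn2 alone with quantile normalization by tissue) and none fell. Only 3 of the 14 in Tk2-/- and 4 in Tk2+/+ skeletal muscle were above background on every array. The sums were 6393 to 7619 in Tk2-/- and 5222 to 5766 in Tk2+/+ arrays. Most of them was the signal of Actn2, which averaged 5487 in Tk2-/- and 4229 in Tk2+/+ arrays. No gene of these lists was at 0 on all arrays of a group.

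Across all 12 arrays, the genes most like the 4 factors in log2(signal + 16) were found among 10367 genes with a mean signal of at least 64 in 1 group or more. These Pearson correlations are descriptions, and the arrays they run over share tissue and genotype. A gene picked for following a factor on these same arrays tends to share its genotype difference. The genotype tests given below for such genes are therefore descriptions too. Those closest to Pax7 were Calcr (r = 0.992), Chrdl2 (0.989), a BMP antagonist, and Myod1 (0.988). Those closest to Myod1 were Calcr, Mettl21c and Adamts20 (0.992 each), and Adamts20, a secreted protease, was at 211.88, 122.56 and 189.62 in Tk2-/- and at 540.28, 508.78 and 383.14 in Tk2+/+ skeletal muscle (log2 fold change -1.39 ± 0.17, adjusted p = 2.90e-05). Mettl21c, a muscle methyltransferase, fell by 1.68 ± 0.26 (adjusted p = 0.000241). Those closest to Myog were Cntnap2 (0.992, and 0.996 over the 6 skeletal muscle arrays), Fndc3c1 (0.991) and Lrrc38 (0.990). Cntnap2, a cell adhesion protein, fell by 1.03 ± 0.15 (adjusted p = 0.000194), Fndc3c1 by 1.12 ± 0.18 (adjusted p = 0.000296) and Lrrc38, an auxiliary subunit of potassium channels, by 1.87 ± 0.24 (adjusted p = 5.87e-05). Those closest to Myf6 were Sim2 (0.998), Myh2 (0.998) and Ryr1 (0.998), the last 2 being fibre proteins, a myosin heavy chain and the calcium release channel. Within the 6 skeletal muscle arrays their correlations with Myf6 were 0.81, 0.65 and 0.68. Myh2 (0.08 ± 0.14, adjusted p = 0.800) and Ryr1 (0.27 ± 0.13, adjusted p = 0.157) did not pass the test and Sim2 rose (0.39 ± 0.11, adjusted p = 0.0204).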

How the data were processed

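RNA was extracted with the RNeasy kit, and targets made with Ambion's WT Expression kit were hybridised to Affymetrix Mouse Gene 1.1 ST arrays, 1 per sample. The authors deposited 1 linear intensity per probe set and array, made with PLIER in Affymetrix Expression Console according to the submitters' processing notes, where no version stands. Their methods mention normalization without a procedure, and the arrays differ in overall level. Signals were used as given and put on the log2 scale after 16 was added to each deposited intensity, which compresses low values. The number of arrays limits the precision.

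Of 35556 probe sets, 21218 carried 1 symbol, 1881 several and 12457 none. The brightest probe set per symbol was kept (18820 genes). One linear model over the 4 groups was fitted with limma (version 3.58.1, R 4.3.3, 8 residual degrees of freedom), 2-sided, and tested on simulated data. Arrays were treated as independent. The methods' t-test was an alternative, as were median centring, quantile normalization over the 12 arrays or by tissue, offsets of 1 and 64, leaving out dim genes (under 32 in all groups), the mean of a gene's probe sets, fits to single tissues, a trended robust prior, array weights, the replicate number as a block, and each array left out.

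The members and lists were chosen with earlier results of these data known. Genes named beside the 10 are, per list, up to 4 with the greatest change past the threshold in skeletal muscle and up to 2 in heart, and the 3 genes most like each of Pax7, Myod1, Myog and Myf6. Figures were drawn with Python 3.11.15 and matplotlib 3.10.9.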

Additional observations from a re-analysis of the deposited data

Results flagged for a closer look

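The genotype effect differed between the tissues for 7 genes, by limma's test of the difference itself (skeletal muscle minus heart, log2, with adjusted p over all genes). The differences were -2.27 for Mymk (adjusted p = 1.73e-05), -1.72 for Myog (adjusted p = 0.0007), -1.36 for Sox8 (adjusted p = 7.77e-05), -1.27 for Myod1 (adjusted p = 0.0111), -0.60 for Megf10 (adjusted p = 0.0307), -0.55 for Pax7 (adjusted p = 0.0350) and -0.42 for Calcr (adjusted p = 0.0351). Except for Megf10, these genes had heart signals at or around the background level in both genotypes. Megf10 was below background on every Tk2-/- heart array, so the size of its difference was not settled. The values of Pax7, Megf10 and Calcr did not pass with quantile normalization by tissue (adjusted p = 0.0633, 0.0556 and 0.0746). Groups of 3 arrays were too small to look for single outlying arrays.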

How the results depend on the processing

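In skeletal muscle the count of 8 lower genes ranged from 6 to 8 when 1 array was left out and was 2 (Mymk and Sox8) with the methods' t-test and Benjamini-Hochberg adjustment. At the methods' threshold, an unadjusted p under 0.05 with a fold of 2 or more, that t-test gave 4 lower (Myog, Mymk, Megf10 and Sox8) and none higher, beside 329 (1.75%) of all genes lower and 312 higher, and after adjustment it called 660 genes over all. It gives no value for the difference between the tissues. The count of higher genes was 0 in the main result, 0 to 1 when 1 array was left out and 1 (Myf6) with median centring. Pax7 lost its call with median centring (adjusted p = 0.0548), an offset of 1 (adjusted p = 0.232) and the t-test (adjusted p = 0.183), and Calcr with an offset of 1 (adjusted p = 0.0642) and the t-test (adjusted p = 0.138). Myf5 changed sign with array weights (-0.034) and ranged from -0.088 to 0.37 when 1 array was left out.

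In heart the counts depend on how arrays are scaled. The count of lower genes, 2, was 0 with median centring and 1 with either quantile normalization (all 12 arrays, or by tissue), with array weights and with the t-test, and 1 to 2 when 1 array was left out. The count of higher genes, 0, was 5 with median centring and 1 (Myf5) with an offset of 1, each tissue alone, array weights and the replicate block, and 0 to 1 when 1 array was left out. Median centring moved the median of all genes in heart to 0.16, against -0.28 as deposited and 0.01 after quantile normalization. Vcam1 changed sign with quantile normalization (0.16 over all arrays and 0.17 by tissue), Myf6 with median centring (0.28), Myog with array weights (-0.017), and Mymk with median centring (0.44), quantile normalization (0.058 over all arrays and 0.052 by tissue) and array weights (0.12). When 1 array was left out, heart values ranged from -0.027 to 0.23 for Pax7, -0.011 to 0.14 for Myog, -0.080 to 0.092 for Mymk, -0.027 to 0.072 for Calcr and -0.028 to 0.070 for Sox8.

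The 7 differences between tissues became 4 with an offset of 1 and 4 to 8 when 1 array was left out. The 9 genes higher in skeletal muscle stayed 9 in each of those 12 fits. Replicate numbers gave no clear pairing of Tk2-/- with Tk2+/+ samples, and deviations within groups of 3 arrays cannot settle it. Deviations of same-numbered arrays correlated at -0.019, 0.075 and 0.099 in skeletal muscle, where numbers 2 and 3 correlated best with themselves. In heart the values were -0.26, -0.025 and 0.065, and no number correlated best with itself. Between skeletal muscle and heart the same-numbered correlations were -0.097, -0.16 and -0.13 in Tk2-/- mice and 0.14, 0.074 and 0.24 in Tk2+/+ mice, where each number correlated best with itself. The methods describe both tissues as taken from 3 mice of each genotype, but do not say which replicate numbers share a mouse. The comparisons between tissues treated arrays as independent and so left out any pairing by mouse. With the replicate block, the count of higher genes in heart became 1. The cause of these changes was not tested. Signals at background limit what the heart arrays can show for 8 of the 10 genes.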

Other observations

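Outside the report's comparison in skeletal muscle, the lists were also counted in heart, where 49.0% of all genes were lower and 1.99% higher in Tk2-/- mice with the deposited values. Of 18 proliferation genes, 18 were lower in Tk2-/- heart, and 16 with quantile normalization by tissue. Ccna2 was at 13.84, 13.99 and 10.53 in Tk2-/- and at 413.21, 186.62 and 178.28 in Tk2+/+ heart (adjusted p = 2.50e-06). No Tk2-/- heart array was above background for Ccna2, so by the deposited signals it was at least 10.9-fold lower. Its log2 fold change was -3.16 with the deposited values and -2.86 with quantile normalization by tissue. Of 11 fibroblast genes, 11 were lower, and 7 after quantile normalization, which put 2 higher (Pdgfra and Pdgfrb). Postn, a matrix protein of activated fibroblasts, was at 207.70, 308.50 and 155.37 in Tk2-/- and at 2440.31, 1503.55 and 1959.48 in Tk2+/+ heart (-3.07 ± 0.20, adjusted p = 1.70e-07, and -2.39 with quantile normalization by tissue).

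Among differentiation targets, Acta1, the skeletal actin that young heart also makes, was at 110.87, 117.26 and 86.41 in Tk2-/- and at 1469.06, 1221.33 and 1522.71 in Tk2+/+ heart (-3.56 ± 0.14, adjusted p = 1.23e-09, and -2.90 with quantile normalization by tissue). In skeletal muscle it averaged 7919 ± 423 in Tk2-/- and 7237 ± 1256 in Tk2+/+ mice (SD, n = 3). Cd34 was lower in Tk2-/- mice in both tissues, with a log2 fold change of -1.14 in skeletal muscle and -2.002 in heart (-1.34 in heart after quantile normalization).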
